A study of Homo sapiens with 372 samples.

Results

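The expression of 10 nuclear genes for chaperones and proteases of the mitochondrion was described in single A2780 cells, namely HSPD1, HSPE1, HSPA9, GRPEL1, TRAP1, LONP1, CLPP, CLPX, YME1L1 and AFG3L2. The members were taken by gene symbol from a fixed list of 10 names. All 10 were found among the 9664 genes listed, and the rule itself uses symbols and no measured value. All 10 also passed the low-value filter, under which a gene had to be found in more than 30% of cells in some condition. This filter left 9655 of the 9664 genes, which are the genes tested below.

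A2780 is a long-used cell line from a human ovarian tumour. The study asked how single cells change their RNA content under 2 drugs, paclitaxel, which stabilizes microtubules, and celecoxib, which inhibits cyclooxygenases. Cells were captured on a Fluidigm C1 chip, and their polyA-tailed RNA was copied at full length with Smart-seq2 together with 3 added spike-in RNAs. The 6 conditions were untreated control (46 cells), 5 nM paclitaxel for 16 h (56 cells) or 48 h (53 cells), 75 µM celecoxib for 2 h (63 cells) or 16 h (61 cells), and 5 nM paclitaxel with 75 µM celecoxib for 16 h (59 cells), here called the combination. In the labels all cells of a condition carry 1 code that no other condition has, and no culture was named as a replicate. A condition therefore counted as 1 sample, the SD given with a mean is the spread over cells, and no test between conditions was made. The drug and whatever else differed between these cultures and their handling cannot be told apart.

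Most mitochondrial proteins are made in the cytosol, and those bound for the matrix cross both membranes unfolded. HSPA9, the mitochondrial HSP70, pulls them into the matrix and releases them with the help of the nucleotide exchange factor GRPEL1, and the chaperonin HSPD1 (HSP60) with its lid HSPE1 (HSP10) folds many of them. TRAP1 is the HSP90 of the matrix. LONP1 and the complex of CLPX and CLPP degrade matrix proteins, and YME1L1 and AFG3L2 degrade proteins at the inner membrane, YME1L1 from the intermembrane space side and AFG3L2 from the matrix side. Several of these genes are known as targets of the mitochondrial unfolded protein response.

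HSPD1 and HSPE1 are neighbours on chromosome 2 (hg38), read away from each other, with the main starts of the 2 genes 539 bases apart. The HSPD1 gene spans positions 197486584 to 197516737 on the minus strand, and HSPE1 spans 197500140 to 197503449 on the plus strand. HSPA9 lies on chromosome 5 at 138553756 to 138575675, and LONP1 on chromosome 19 at 5691834 to 5720572, both on the minus strand. CLPP is also on chromosome 19, at 6361531 to 6370242 on the plus strand. The remaining members lie on the minus strand of chromosomes 4 (GRPEL1, 7058671 to 7068085), 16 (TRAP1, 3651639 to 3717553), 15 (CLPX, 65148219 to 65185342), 10 (YME1L1, 27110111 to 27155266) and 18 (AFG3L2, 12328944 to 12377227).

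The stretches below are those that carry a letter pattern of a stress factor or E-box factor in the promoter windows of the members whose values set them apart later. They come from RefSeq promoter windows (GRCh38.p14), 300 bases long and mostly before a start, and are printed 5′ to 3′ on the strand of the gene. Windows were held for 7 of the 10 members, and GRPEL1, CLPP and YME1L1 had none. In the first 2 lines the capitals mark heat shock letters, TTCNNGAA or GAANNTTC, and in the other 4 they mark the E-box CACGTG.

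HSPD1 (chr2:197500061-197500090): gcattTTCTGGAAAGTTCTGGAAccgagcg
HSPA9 (chr5:138575387-138575416): tggttggaggtTTCCAGAAgcgctgccgcc
HSPE1 (chr2:197500345-197500374): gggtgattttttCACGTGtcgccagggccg
HSPA9 (chr5:138575403-138575432): cgcccctcacccCACGTGgttggaggtttc
LONP1 (chr19:5720341-5720370): ctcacagccttcCACGTGaccggaaaaggc
LONP1 (chr19:5720178-5720207): cgcgccgggcgtCACGTGcgtttcgcggcg

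The HSPD1 block of 18 bases holds 3 overlapping matches, 228 to 245 bases before the HSPD1 start and so between the starts of HSPD1 and HSPE1. GAANNTTC was found in 6.77% of the 35116 windows, among the members in HSPD1 only. TTCNNGAA was in 7.74% of windows, among the members in HSPD1 and HSPA9. Both patterns and the E-box read the same on either strand. The E-box, which was chosen after the values were seen, was in 7.26% of windows and in those of HSPD1, HSPE1, HSPA9 and LONP1. This share is per window, and HSPD1 and LONP1 had 2 windows each, so that it is no measure of enrichment among the members. The HSPE1 match, 22 bases before the HSPE1 start, is the same site as the one in a second window of HSPD1. The LONP1 matches lie 212 and 49 bases before its start. TGATGNAA, the letters bound by CHOP and ATF4 pairs, was searched on both strands and found in 3.62% of windows and in no member window. A match is a run of letters and shows no binding, and its absence covers these windows alone.

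The deposited E-value is log2(N/10 + 1), where N is the TPM of a gene (its transcripts relative to all transcripts, per unit of transcript length) after division by the highest spike-in RNA of that cell. Levels can therefore be compared between genes. The 10 in the formula makes differences in E smaller than the true log2 fold where a gene is weak. Reads per cell are unknown, and the median number of genes detected ran from 6126 to 6630 between the conditions. The sum of N over the genes of a cell is its transcript total. On the log2 scale the median total minus that of the control was −0.99 and −0.64 for paclitaxel (16 h, 48 h), −0.76 and −1.52 for celecoxib (2 h, 16 h) and 0.49 for the combination. Many differences, though not all, are therefore given also after each cell was rescaled to the same total, the median of the control cells. A difference given on the deposited scale alone need not hold after rescaling. A gene counted as past the limit when its mean E-value differed by over 0.585, which is log2 of 1.5. Of 11 ovarian and epithelial markers KRT18 and VIM are listed, and of 7 markers of other cell types COL1A2. KRT18 was detected in 23.9 to 36.5% of the cells of a condition, VIM in 62.5 to 86.8% and COL1A2 in 10.7 to 32.8%.

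HSPE1 and HSPD1 were the most abundant members in control cells and AFG3L2 the least abundant. Mean E was 7.90 for HSPE1 and 7.24 for HSPD1, followed by 5.34 for HSPA9, 5.24 for GRPEL1, 4.98 for CLPP and 4.69 for TRAP1. The proteases LONP1, CLPX, YME1L1 and AFG3L2 were far lower, at 2.03, 2.08, 2.39 and 1.70. Within each of these 3 tiers neighbours in the order differed by less than the SD over cells of either gene, while the gaps between the tiers were wider than that. In linear units control cells held a mean N of 2622 for HSPE1 and 1753 for HSPD1 against 49.0 for LONP1 and 29.6 for AFG3L2. HSPD1 and HSPE1 were detected (E above 0) in all 338 cells. The weakest detection was that of LONP1, from 73.6% of cells after 48 h of paclitaxel to 96.7% after 16 h of celecoxib. HSPD1 and HSPE1 have many processed pseudogenes, between which reads can be split by estimation only. A readthrough gene, HSPE1-MOB4, is listed on its own with a mean N of 64.9 in control cells and shares exons with HSPE1, so that reads may have been divided between them.

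**Figure D1:**
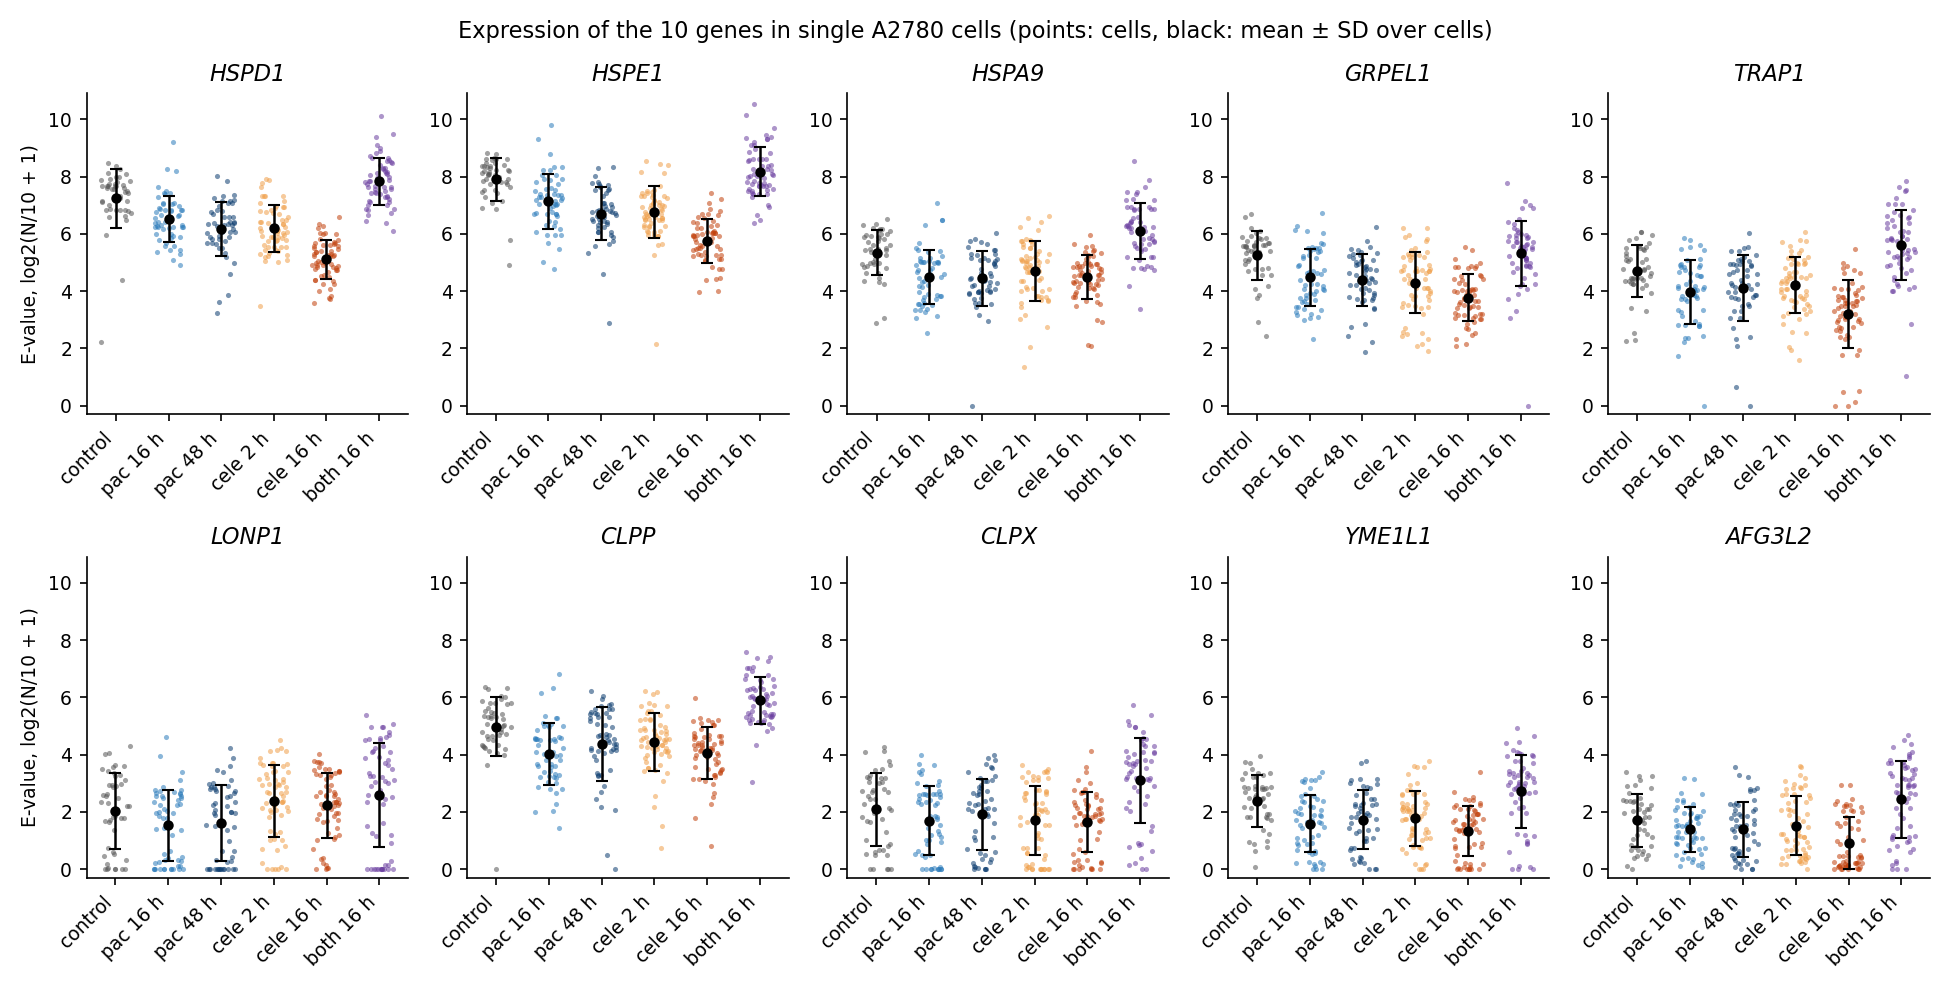
E-values of the 10 genes in single cells of the 6 conditions (grey control, blue paclitaxel, orange celecoxib, purple both drugs), 1 point per cell, with the mean and SD over cells in black. HSPD1 and HSPE1 sit lowest after 16 h of celecoxib, at means of 5.10 and 5.75, and highest with the combination, at 7.83 and 8.17, while LONP1 stays between 1.52 and 2.58 throughout.

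The chaperonin pair was lower with each single drug, most after 16 h of celecoxib, and HSPD1 was higher with the combination. In control cells HSPD1 had a mean E of 7.24 ± 1.04 (SD, n = 46 cells), a median of 7.53 and a range from 2.21 to 8.49. The lowest control cell was also the lowest of all 338 cells for HSPD1. After 16 h of paclitaxel the HSPD1 mean was 6.52 ± 0.81 (n = 56), with a median of 6.43 and a range of 4.92 to 9.20. At 48 h of paclitaxel HSPD1 stood at 6.17 ± 0.94 (n = 53), median 6.26, range 3.23 to 8.01. Nearly all of these cells lay under the control median, namely 52 of 56 cells at 16 h and 51 of 53 at 48 h. Celecoxib for 2 h gave HSPD1 a mean of 6.19 ± 0.83 (n = 63), a median of 6.11 and a range of 3.49 to 7.92. Celecoxib for 16 h gave 5.10 ± 0.69 (n = 61), with a median of 5.21 and a range of 3.57 to 6.58. All 61 cells of that condition were below the HSPD1 control median, although none was below the lowest control cell. With the combination HSPD1 reached 7.83 ± 0.82 (n = 59), median 7.80, range 6.10 to 10.1. The combination and control cells overlapped widely, with 37 of 59 combination cells above the control median and 13 above the highest control cell.

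HSPE1 was also lower with each single drug, from a higher level, and its combination cells lay around the control median. Its mean E in control cells was 7.90 ± 0.74, with a median of 8.08 and a range of 4.90 to 8.84. Paclitaxel cells averaged 7.13 ± 0.95 at 16 h, with a median of 7.16 and a range of 4.77 to 9.81. Cells at 48 h of paclitaxel averaged 6.69 ± 0.93, with a median of 6.74 and a range of 2.89 to 8.32. The 48 h mean of HSPE1 was the lower of the 2, and 51 of 53 cells were under the control median. With celecoxib the mean of HSPE1 was 6.75 ± 0.91 at 2 h, the median 6.71 and the range 2.14 to 8.53. At 16 h of celecoxib the mean was 5.75 ± 0.76, the median 5.86 and the range 3.95 to 7.44. All 61 of these cells lay below the control median and 8 lay below the lowest control cell. The combination gave HSPE1 a mean of 8.17 ± 0.86, a median of 8.02 and a range of 6.39 to 10.5, with 26 of 59 cells above the control median.

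Expressed as differences in mean E from control, HSPD1 was 0.73 lower and HSPE1 0.77 lower after 16 h of paclitaxel (−0.73 and −0.77), and −1.07 and −1.21 at 48 h. The differences were −1.05 and −1.15 at 2 h of celecoxib and −2.14 and −2.15 at 16 h. At 16 h of celecoxib this was a ratio of linear means 4.70-fold lower for HSPD1 and 4.34-fold lower for HSPE1. Of the genes tested, 1.68% and 1.64% had a more negative difference. These ranks depend in part on level, since a given fold gives a larger difference in E for an abundant gene than for a weak one. After rescaling to the same total the pair was still 0.76 and 0.77 lower at 16 h of celecoxib (−0.76 and −0.77), 1.71-fold and 1.67-fold in linear means. On that scale 1 of 61 celecoxib cells was above the control median for HSPD1 and 3 of 61 for HSPE1. For paclitaxel at 16 h, by contrast, the same-total differences were 0.09 and 0.04, so that the lower deposited level of the pair went with the lower transcript total. At 48 h of paclitaxel the same-total differences were −0.44 and −0.58, close to the −0.48 and −0.58 at 2 h of celecoxib. These 4 values were within the limit. With the combination HSPD1 was 0.59 higher, just past the limit, and HSPE1 0.27 higher, and both were negative at the same total, at −0.10 and −0.43. The value of HSPD1 was under the limit when medians over cells were used, at 0.27, and was 0.70 and 0.44 in the 2 blocks of 96 consecutive library numbers taken alone. For HSPE1 the medians gave −0.06.

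HSPA9, GRPEL1 and TRAP1, the import motor chaperone, its exchange factor and the matrix HSP90, were also lower with single drugs, but at 16 h of celecoxib HSPA9 was lowered less than the chaperonin. In control cells HSPA9 had a mean E of 5.34 ± 0.78, a median of 5.45 and a range of 2.90 to 6.51. The means were 4.50 ± 0.94 at 16 h (median 4.52, range 2.54 to 7.08) and 4.45 ± 0.96 at 48 h of paclitaxel (median 4.42, range 0 to 6.03). HSPA9 was not detected in 1 cell at 48 h of paclitaxel and was detected in every other cell of the 6 conditions. After celecoxib HSPA9 stood at 4.70 ± 1.04 at 2 h (median 4.89, range 1.33 to 6.61) and 4.48 ± 0.78 at 16 h (median 4.56, range 2.07 to 5.96). The combination gave 6.11 ± 0.97 (median 6.21, range 3.36 to 8.55), with 46 of 59 cells above the control median. The 4 single-drug conditions thus lay within a narrow band for HSPA9, whereas for HSPD1 the band was wider and 16 h of celecoxib lay at its lower end.

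The difference of HSPA9 from control was −0.86 at 16 h of celecoxib, close to its −0.84 and −0.89 with paclitaxel, and 0.77 with the combination. Rescaled, HSPA9 was 0.50 higher at 16 h of celecoxib, where 46 of 61 cells exceeded the control median, and lay within 0.29 of the control in the other 4 treatments. GRPEL1 differed by −0.76 and −0.86 with paclitaxel, −0.95 and −1.48 with celecoxib and 0.07 with the combination. Its mean in control cells was 5.24 ± 0.85, and it was the member least raised by the combination, from 5.24 to 5.31 ± 1.15. On rescaled values GRPEL1 was at −0.60 with the combination, where 13 of 59 cells were above the control median. TRAP1 went from 4.69 ± 0.90 in control cells to 3.19 ± 1.18 at 16 h of celecoxib, a difference of −1.50, and to 5.61 ± 1.22 with the combination, a difference of 0.92. Rescaling to the same total left TRAP1 differences of −0.30 and 0.25 in these conditions.

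LONP1, the ATP-dependent protease of the matrix, was the member whose mean E was above the control with celecoxib alone. Control cells had a mean of 2.03 ± 1.34 for LONP1, a median of 2.26 and a range of 0 to 4.31, and 6 of 46 cells had none detected. After paclitaxel the mean was 1.52 ± 1.24 at 16 h (median 1.82, range 0 to 4.60) and 1.61 ± 1.31 at 48 h (median 1.94, range 0 to 4.23). LONP1 was not detected in 11 of 56 and 14 of 53 of these cells. Celecoxib gave 2.38 ± 1.25 at 2 h (median 2.65, range 0 to 4.52) and 2.22 ± 1.14 at 16 h (median 2.33, range 0 to 4.03). Here the gene was undetected in 5 of 63 and 2 of 61 cells, so that it was found in more cells than in the control although the transcript total was lower. The combination gave 2.58 ± 1.82 (median 3.05, range 0 to 5.39), with no LONP1 in 12 of 59 cells. The spread over cells was therefore widest with the combination, and all 6 conditions overlapped.

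On the deposited scale the difference of LONP1 was 0.35 at 2 h and 0.19 at 16 h of celecoxib, within 0.26 and 0.14 control SDs, and neither was past the limit. These differences were above those of 97.1% and 97.3% of the genes tested, whose medians were −0.26 and −0.48. After rescaling LONP1 was 0.82 higher at 2 h and 1.33 higher at 16 h of celecoxib, the latter 3.04-fold in linear means and above 99.1% of genes. On that scale 46 of 63 cells at 2 h and 50 of 61 cells at 16 h exceeded the control median. The same-total differences were −0.06 and −0.08 with paclitaxel and 0.09 with the combination. LONP1 at 16 h of celecoxib without paclitaxel was thus apart from LONP1 at 16 h of celecoxib with paclitaxel, by −1.24 on the same-total scale for the combination against celecoxib alone, where 0.40% of genes had a more negative value.

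The remaining proteases had a lower mean E in every single-drug condition and a higher one with the combination. With single drugs YME1L1 was past the limit each time, CLPP except at 2 h of celecoxib, AFG3L2 only at 16 h of celecoxib and CLPX never. With the combination all of them but YME1L1 were past it. CLPP, the proteolytic subunit of the CLPXP complex, had a mean of 4.98 ± 1.02 in control cells, 4.02 ± 1.07 and 4.37 ± 1.31 with paclitaxel, 4.43 ± 1.02 and 4.04 ± 0.91 with celecoxib and 5.90 ± 0.82 with the combination. Its combination cells stood highest against the control, with 55 of 59 above the control median. CLPX, the unfoldase that feeds CLPP, was weaker, at 2.08 ± 1.29 in control cells, 1.69 ± 1.21 and 1.91 ± 1.25 with paclitaxel, 1.70 ± 1.22 and 1.63 ± 1.05 with celecoxib and 3.09 ± 1.49 with the combination. The difference of 1.01 with the combination was the largest of any member. With totals made equal, CLPP and CLPX were 0.43 and 0.44 higher at 16 h of celecoxib and 0.29 and 0.48 higher with the combination, all within the limit.

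YME1L1, the inner membrane protease that also cleaves the fusion protein OPA1, was at 2.39 ± 0.91 in control cells, 1.58 ± 0.99 and 1.71 ± 1.03 with paclitaxel, 1.77 ± 0.95 and 1.33 ± 0.86 with celecoxib and 2.71 ± 1.27 with the combination. Its difference from control was between −0.62 and −1.06 with the single drugs, and 0.32 with the combination. Its same-total difference was negative in all 5 treatments, from −0.20 to −0.34, within the limit each time. AFG3L2, a subunit of the m-AAA protease, was at 1.70 ± 0.94 in control cells, 1.38 ± 0.78 and 1.38 ± 0.97 with paclitaxel, 1.51 ± 1.03 and 0.90 ± 0.92 with celecoxib and 2.44 ± 1.35 with the combination. At 16 h of celecoxib its median of 0.45 lay well below its mean, with cells ranging from 0 to 2.93.

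Counted against the limit, 7 of the 10 members were lower after 16 h of paclitaxel, where 37.3% of the 9655 genes were, and 6 after 48 h, where 26.6% were. At 48 h this count was 8 in block 2 of the library numbers and 4 in block 4. All 46 control cells are in block 4, and no other treatment has cells there. Block and treatment can therefore not be told apart in the other comparisons with control. After celecoxib 5 members were lower past the limit at 2 h (25.7% of genes) and 8 at 16 h (43.9% of genes). With the combination 6 members were past the limit upward, as were 30.4% of genes. No member passed the limit in the opposite direction, which was rare among all genes as well, at 0.0932% and 0.922% upward with paclitaxel (16 h, 48 h), 1.12% and 0.383% upward with celecoxib (2 h, 16 h) and 1.76% downward for the combination. The 5 comparisons share the same control cells. A given fold gives a larger difference in E for an abundant gene than for a weak one, so that shares of genes that differ in level are not directly comparable. The median difference of the members was −0.75, −0.64, −0.58, −1.002 and 0.66 in the order of the conditions above, against −0.41, −0.26, −0.26, −0.48 and 0.33 over all genes.

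Few members were past the limit at the same total. None was past it with paclitaxel at either time. At 2 h of celecoxib LONP1 alone was higher (4.18% of genes were). At 16 h LONP1 was higher (8.87% of genes), and HSPD1 and HSPE1 were lower (10.1% of genes). With the combination GRPEL1 alone was lower (7.64% of genes). The median difference of the members lay between −0.17 and 0.08 in the 5 treatments on that scale.

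**Figure D2:**
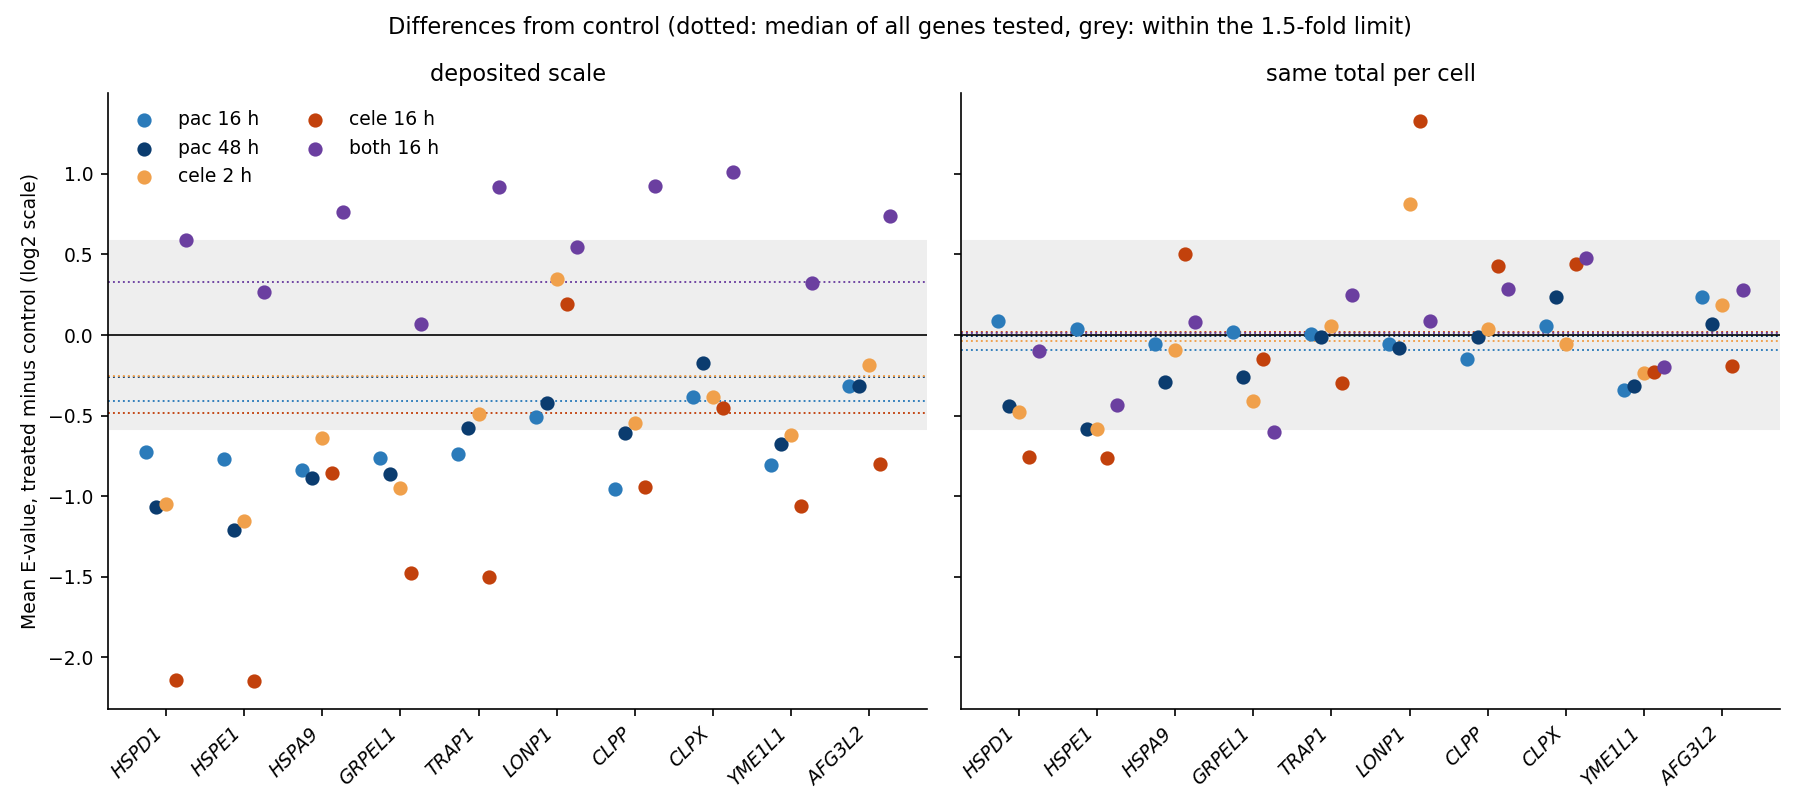
Difference in mean E-value from control for each gene and treatment, on the deposited scale (left) and with every cell at the same total (right), with the median of all genes tested as dotted lines and the 1.5-fold limit as a grey band. On the left the combination lies above 0 and the single drugs below it for each gene but LONP1, and on the right LONP1 at 2 and 16 h of celecoxib stands above the band, at 0.82 and 1.33, and HSPD1 and HSPE1 at 16 h below it, at −0.76 and −0.77.

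Comparisons between treatments did not use the control cells. All 10 members were higher past the limit with the combination than with paclitaxel alone at 16 h, where 62.5% of genes were, with differences from 0.84 for GRPEL1 to 1.88 for CLPP. Against celecoxib alone at 16 h, 9 members were higher (66% of genes), from 1.39 for YME1L1 to 2.73 for HSPD1, and LONP1 differed by 0.36. HSPD1 had the clearest separation, since 56 of 59 combination cells were above the highest cell of celecoxib alone, a ratio of linear means of 7.18. HSPE1 followed with 49 of 59 cells and a ratio of 5.73. With totals made equal, HSPD1 was still 0.66 higher (6.94% of genes were past the limit upward), and LONP1 was lower, at −1.24 (5.85% downward). Against paclitaxel alone GRPEL1 was lower at the same total, by −0.62 (2.11% of genes).

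Between the 2 times of paclitaxel no member differed past the limit on the deposited scale, from −0.44 for HSPE1 to 0.35 for CLPP. After rescaling HSPE1 was lower at 48 h than at 16 h, at −0.62 (1.81% of genes), and HSPD1 stood at −0.53. Between 2 and 16 h of celecoxib HSPD1, HSPE1, TRAP1 and AFG3L2 were lower at the later time, by −1.09, −0.997, −1.01 and −0.61 (19.4% of genes). Rescaled HSPA9 was higher at 16 h than at 2 h of celecoxib, by 0.59 (9.95% of genes). HSPD1 and HSPE1 differed by −0.28 and −0.18 on that scale, so that most of their same-total difference from control was present at 2 h.

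The ratio of N of 2 genes within a cell does not depend on the scaling of that cell. With 10 added to each N it does depend on it in part where a gene is weak. LONP1 is such a gene, with a median N of 37.9 in control cells and 40.4 at 16 h of celecoxib. A ratio of mean N over cells gives more weight to cells with high N. LONP1 and HSPA9 relative to HSPD1, pairs chosen after their values were seen, changed most with celecoxib alone. The mean N of LONP1 was 0.0280 of that of HSPD1 in control cells, 0.0288 and 0.0408 with paclitaxel, 0.0721 and 0.136 with celecoxib at 2 and 16 h, and 0.0377 with the combination. Within cells, with 10 added to each N, the median log2 ratio was −5.04 in control cells (SD 1.36, range −7.82 to −2.16) and −2.83 after 16 h of celecoxib (SD 1.24, range −6.21 to −0.05). In a cell without LONP1 this ratio is set by the added 10 and by HSPD1 alone, which applies to 6 control cells and 2 cells at 16 h of celecoxib. Of the 61 celecoxib cells, 58 were above the control median and 16 above the highest control cell. At 2 h 48 of 63 cells were above the control median, and with the combination 29 of 59. The mean N of HSPA9 was 0.255 of that of HSPD1 in control cells and 0.651 after 16 h of celecoxib, where 57 of 61 cells exceeded the control median, and 0.316 with the combination.

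**Figure D3:**
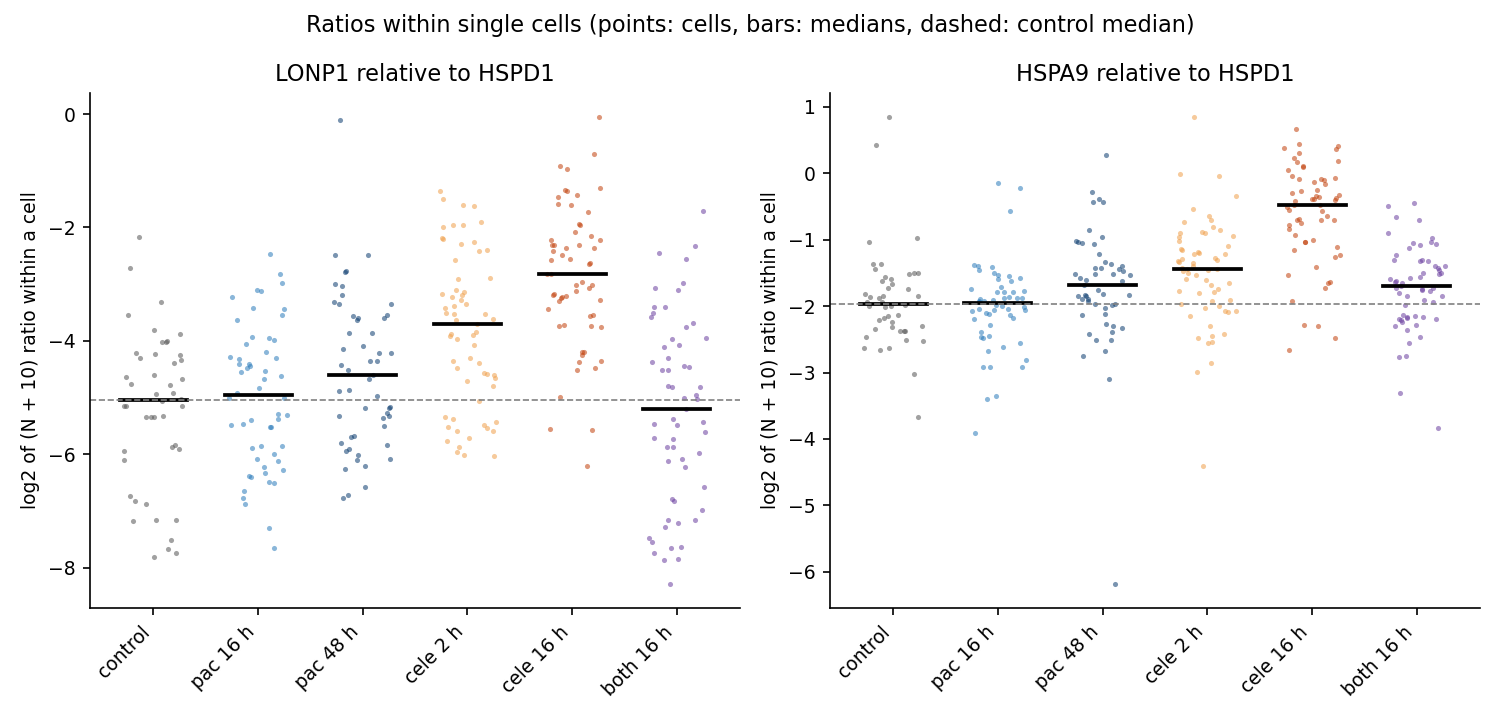
Log2 ratio of LONP1 to HSPD1 (left) and of HSPA9 to HSPD1 (right) within single cells of the 6 conditions, computed on N + 10, with medians as black bars and the control median as a dashed line. The medians after 16 h of celecoxib, −2.83 and −0.47, are the highest in both panels, and those of the combination, −5.21 and −1.69, lie near the control.

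Ratios were also taken between genes that work as partners. HSPD1 was 0.668 of HSPE1 by mean N in control cells and between 0.618 and 0.774 in the treatments. HSPA9 relative to GRPEL1 was 1.06 in control cells, 1.01 and 1.05 with paclitaxel, 1.31 and 1.63 with celecoxib, and 1.70 with the combination. In that pair 45 of 61 cells at 16 h of celecoxib and 46 of 59 cells of the combination were above the control median. CLPX relative to CLPP stayed between 0.136 and 0.174. YME1L1 relative to AFG3L2 was 1.76 in control cells and between 1.17 and 1.49 in the treatments, with an SD over cells of 1.07 or more on the log2 scale in every condition.

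As a share of the transcript total of a cell, the 10 members together held a median of 0.398% in control cells (range 0.164 to 0.650%). Their share was 0.418% and 0.304% with paclitaxel (16 h, 48 h), 0.305% and 0.309% with celecoxib (2 h, 16 h) and 0.345% for the combination. HSPD1 and HSPE1 made up most of it. Their joint share was 0.291% in control cells, 0.297% and 0.205% with paclitaxel, 0.190% and 0.159% with celecoxib, and 0.220% with the combination. The other 8 members held 0.107% in control cells, from 0.108 to 0.115% in 4 treatments, and 0.141% at 16 h of celecoxib. The 10 genes thus held near-equal shares at 2 and 16 h of celecoxib, with less chaperonin and more of the others at 16 h. Not all of the 8 had a larger median share at 16 h than in control cells. HSPA9 (0.0283 to 0.0416%), CLPP (0.0219 to 0.0293%), LONP1 (0.00240 to 0.00668%) and CLPX (0.00288 to 0.00421%) did. The medians of GRPEL1, YME1L1 and AFG3L2 were smaller, and that of TRAP1 was 0.0173% in both.

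**Figure D4:**
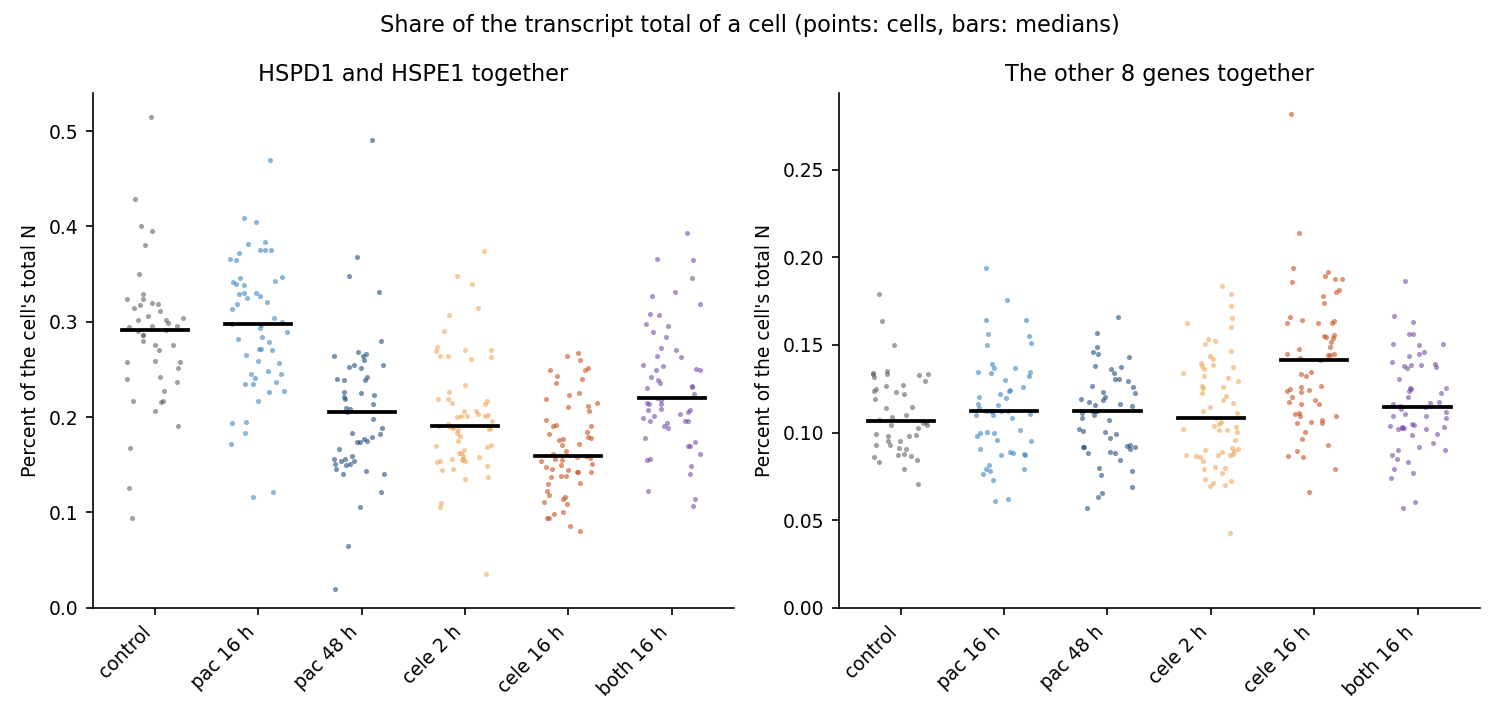
Percent of the transcript total of a cell held by HSPD1 and HSPE1 together (left) and by the other 8 genes together (right), 1 point per cell, with medians as black bars. The chaperonin share is lowest at 16 h of celecoxib, at a median of 0.159%, and the share of the other genes is highest there, at 0.141%.

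Across the cells of a condition HSPD1 and HSPE1 went up and down together. Pearson's r of their E-values was 0.85 in control cells, 0.84 and 0.76 with paclitaxel (16 h, 48 h), 0.55 and 0.64 with celecoxib (2 h, 16 h) and 0.81 for the combination (46 to 63 cells each). These cells come from 1 sample per condition, and their totals differ: HSPD1 itself had an r of 0.71 to 0.93 with the log2 total. Rescaled, the r of the pair was between 0.28 and 0.59. Over all 45 pairs of members the median of r within conditions was 0.32 as deposited and 0.04 after rescaling, where the pair of HSPD1 and HSPE1, at 0.41, was the only one above 0.3. The weakly expressed proteases had lower r with the total, with a median over conditions of 0.33 for LONP1 and 0.32 for CLPX against 0.81 for HSPD1.

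**Figure D5:**
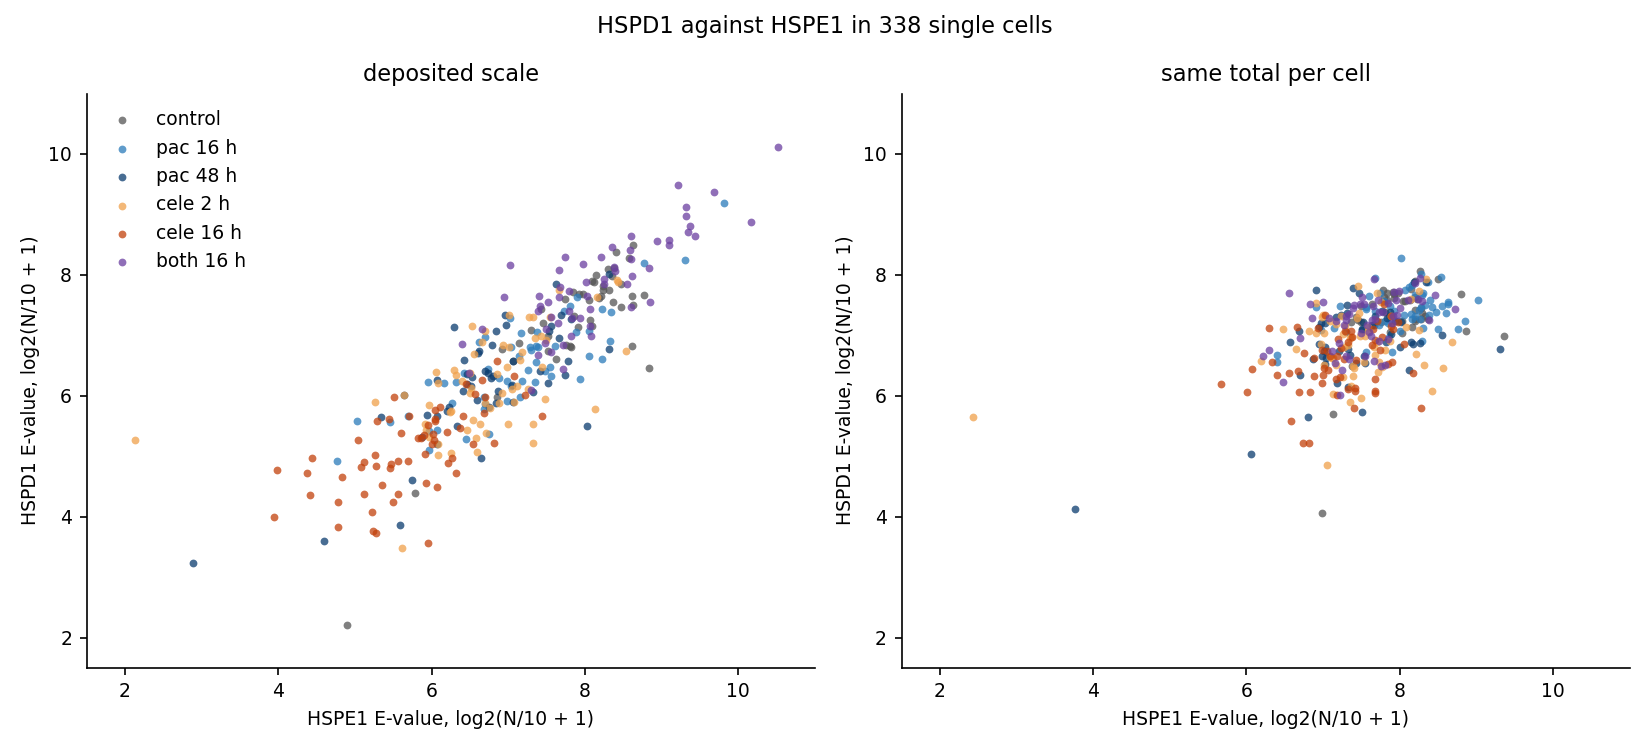
HSPD1 against HSPE1 E-values in the 338 cells, coloured by condition, as deposited (left) and at the same total per cell (right). On the left the points run along a diagonal from the cells at 16 h of celecoxib to those of the combination, with an r within conditions of 0.55 to 0.85, and on the right the cloud is rounder, with an r of 0.28 to 0.59.

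The genes most alike HSPD1 at the same total, by the median r over the 6 conditions among 9654 other genes, were EIF4EBP1 (0.43), C1QBP (0.41), HSPE1 (0.41), EIF5A (0.40) and RPS16 (0.39). C1QBP is a mitochondrial matrix protein, and EIF4EBP1 and EIF5A act in translation. For HSPE1 they were PTMA (0.49), RPS7 (0.49), HMGB1 (0.48), SNRPG (0.45) and TXN (0.45), and HSPD1 ranked 10. The r of EIF4EBP1 ran from −0.05 to 0.82 between conditions, and that of C1QBP from 0.22 to 0.53.

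On the deposited scale other genes of mitochondrial protein import and quality control were mostly lower at 16 h of celecoxib too. Of 23 import genes tested, 20 were lower past the limit (43.9% of all genes were) and none higher, with a median difference of −1.38 against −0.48 over all genes. At the same total 5 of the 23 were lower (10.1% of all genes) and 1 higher (8.87%), with a median of −0.15 against 0.02. With the combination 3 import genes were higher (30.4% of all genes) and 3 lower (1.76%), with a median of 0.24 against 0.33. Rescaled, 7 were lower with the combination (7.64% of all genes) and none higher, with a median of −0.43 against 0.02. The channel subunit TIMM23 had the largest fall in mean E at 16 h of celecoxib, from 6.12 ± 0.90 to 3.73 ± 1.15, and was −1.14 at the same total. TIMM9, a small chaperone of the intermembrane space, differed least, from 3.56 ± 1.29 to 3.20 ± 1.00, and was 0.90 higher at the same total. With the combination the J protein DNAJC19 was highest against control, 6.36 ± 0.79 against 5.17 ± 0.91, and TIMM8A, another small chaperone, was lowest, 2.19 ± 1.84 against 3.00 ± 1.26.

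Among 6 other chaperones and assembly factors, 3 were lower past the limit at 16 h of celecoxib (median −0.69), and with the combination 1 was higher and 2 were lower (median 0.15), to be read against the same shares and medians of all genes. At the same total 1 of the 6 was lower at 16 h of celecoxib (10.1% of all genes) and 2 were higher (8.87%), with a median of 0.05. DNLZ, which keeps HSPA9 soluble, was −1.43 at 16 h of celecoxib and −0.67 with the combination, where HSPA9 was 0.77. CLPB, a disaggregase of the intermembrane space, was 0.10 at 16 h of celecoxib and 0.97 at the same total. ATAD1, which extracts misplaced proteins from the outer membrane, was 1.65 higher with the combination. Among 14 other proteases and peptidases, 9 were lower at 16 h of celecoxib (median −0.96, 43.9% of all genes lower) and 2 higher with the combination (median 0.35, 30.4% of all genes higher). At the same total 4 of the 14 were lower at 16 h of celecoxib and 1 higher, with a median of −0.13. IMMP1L, an inner membrane peptidase, was −2.08 at 16 h of celecoxib, and METAP1D, a methionine aminopeptidase, was −0.03. With the combination PMPCB, a subunit of the mitochondrial processing peptidase, was 0.80 and HTRA2, a serine protease of the intermembrane space, −0.48.

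All 4 listed prohibitins and partners were lower past the limit at 16 h of celecoxib, where 43.9% of all genes were. Their differences ran from −0.95 for C2orf47 to −2.06 for PHB2. With the combination 1 of them was higher (STOML2, 0.70, with 30.4% of all genes), and PHB2 was 0.17. At the same total 1 of the 4 was lower at 16 h of celecoxib (10.1% of all genes), with a median of −0.04. STOML2 was 0.01 with the combination on that scale. Regulators of stress responses included genes with a higher mean E. Of 5 such genes 3 were higher past the limit at 2 h of celecoxib (1.12% of all genes), 2 at 16 h (0.383%) and 4 with the combination (30.4%). DDIT3, which encodes CHOP, went from 2.99 ± 2.07 in control cells to 4.11 ± 1.89 at 16 h of celecoxib and 4.70 ± 2.55 with the combination. HSF1, the heat shock factor, was at 1.73 ± 0.83 in control cells, 0.96 ± 0.73 at 16 h of celecoxib and 1.89 ± 1.36 with the combination. With totals made equal, 4 of the 5 regulators were past the limit upward at 2 h (4.18% of all genes) and at 16 h of celecoxib (8.87%). Among the members LONP1 alone was past it upward at these times. With the combination 3 of the 5 regulators were past it on that scale (7.87% of all genes), and LONP1 was not, at 0.09.

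Chaperones of other compartments gave the following counts at 16 h of celecoxib, where 43.9% of all genes were lower past the limit with a median of −0.48. All 8 subunits of the cytosolic chaperonin CCT were lower past the limit, with a median of −1.90, as were 11 of 13 cytosolic heat shock proteins (median −1.53) and 11 of 15 chaperones of the endoplasmic reticulum (median −0.96). With the combination 11 of those 15 were higher, 3 of the 13 cytosolic heat shock proteins and none of the 8 CCT subunits, against 6 of 10 mitochondrial members and 30.4% of all genes. Rescaled, 16 h of celecoxib gave medians of −0.54 for CCT, −0.25 for the cytosolic heat shock proteins, 0.32 for the endoplasmic reticulum chaperones and −0.17 for the mitochondrial members. Whether these lists differ beyond what 1 sample per condition can give was not tested.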

How the data were processed

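Per the study's methods and the submitters' processing notes, reads were trimmed (Trim Galore) and quantified by RSEM 1.3.0 with Bowtie2 against GENCODE 28 transcripts of hg38 plus 3 spike-in sequences. The authors put TPM relative to the most abundant spike-in of its cell and dropped cells with a low mean E-value of housekeeping genes (338 of 372 remain). Most of the dropped cells were control cells or cells at 48 h of paclitaxel, and none were of the combination. How this uneven loss bears on the differences from control was not tested. Genes seen in 30% or less of the cells in every condition were also dropped. The log2 values that they deposited are E-values, log2(N/10 + 1), with 3 decimals. All 338 columns were mapped to cells. Doublets were not called, since that needs counts.

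N was recovered from E, and mean E-values were compared over cells. With 1 sample per condition there was no test, and reads per cell are unknown. The members, gene lists and motifs were chosen with earlier results of these data known, and the E-box and the ratios of LONP1 and HSPA9 to HSPD1 after their values were seen. Named beside the members are the largest rise and fall in each mitochondrial list at 16 h of celecoxib and with the combination, among genes detected in at least 30% of cells of both groups, and the 5 genes most alike HSPD1 and HSPE1. Coordinates are from GENCODE 44 on hg38. Alternatives tried were rescaling to the same total, ratios of linear means, medians, a pseudocount of 1, other detection limits, cells whose well note was exactly 1, and blocks of 96 library numbers alone. The difference step was tested on simulated data. Python 3.11.15, numpy 2.4.6, pandas 2.3.3 and matplotlib 3.10.9 were used.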

Additional observations from a re-analysis of the deposited data

Results flagged for a closer look

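For 8 of the 10 members 16 h of celecoxib went opposite ways without and with paclitaxel: lower past the limit against control cells, and higher past the limit when added to paclitaxel. The difference between both effects, in mean E-value, was 3.453 for HSPD1, 3.186 for HSPE1, 3.163 for TRAP1, 2.823 for CLPP, 2.459 for HSPA9, 2.313 for GRPEL1, 2.192 for YME1L1 and 1.856 for AFG3L2. It was not tested, since each condition was 1 sample. LONP1 and CLPX did not meet both limits, at 0.19 and −0.45 without and 1.06 and 1.40 with paclitaxel. The same opposite pattern was found in 3626 of 9655 genes (37.6%), with a median difference between the effects of 1.33 over all genes and 2.39 over the members. At the same total per cell these medians were 0.09 and 0.12.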

How the results depend on the processing

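The 50 member differences from control kept their sign under ratios of linear means, a pseudocount of 1 and cells with a well note of exactly 1, as did the 10 of each block of library numbers alone. With medians over cells 2 changed sign, both small and with the combination (HSPE1 to −0.06 and GRPEL1 to −0.007). The limit itself was crossed more often. It was no longer reached by 2 differences in ratios of linear means, by 3 with medians, by 2 in block 4 and by 1 in block 3, and it was newly reached by 4, 2, 0 and 1, by 8 with a pseudocount of 1, by 1 with that well note and by 2 in block 2. At 48 h of paclitaxel blocks 2 and 4 gave 8 and 4 members past the limit, a median of −0.97 and −0.41, CLPP at −1.11 and −0.26 and AFG3L2 at −0.74 and −0.02. The control cells are all in block 4. The combination gave 6 members in both of its blocks. At the same total 0, 0, 0, 2 and 0 members were past the limit in the main direction with paclitaxel at 16 and 48 h, celecoxib at 2 and 16 h and the combination, with the same counts from ratios of linear means at the same total, an alternative added after seeing the data. In the other direction these settings gave 1 and 1 member at 2 h of celecoxib (1 also with a pseudocount of 1), 1 and 2 at 16 h, and 1 at the same total with the combination. The median difference of the members became 0.0111 and 0.0706 with paclitaxel at 16 h and −0.17 and 0.14 with celecoxib at 16 h. Of the 50 differences 18 changed sign at the same total and 28 in its linear ratio. Those past the limit as deposited were, at the same total and then in its linear ratio, with paclitaxel at 16 h HSPD1 (0.0876, 0.0391), HSPE1 (0.0386, 0.0562), GRPEL1 (0.0158, 0.0850) and TRAP1 (0.00652, 0.162), and in the linear ratio alone HSPA9 (0.0102). CLPP at 48 h of paclitaxel (0.12) and HSPA9 at 2 h of celecoxib (0.00217) did so in the linear ratio alone. At 16 h of celecoxib HSPA9 (0.50, 0.57) and CLPP (0.43, 0.43) did in both, and TRAP1 (0.0245), YME1L1 (0.0444) and AFG3L2 (0.24) in the linear ratio. With the combination HSPD1 did (−0.10, −0.13), and, not past the limit as deposited, so did HSPE1 (−0.43, −0.42), GRPEL1 (−0.60, −0.54) and YME1L1 (−0.20, −0.12). The others that changed sign were not past it either. The linear ratio changes scaling and averaging together, and the cause of these shifts was not tested.

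No paired analysis was possible because each condition is 1 sample and the cell numbers pair nothing, so that there was no replicate to leave out. Weak genes such as AFG3L2 are undetected in some cells, and the read depth is unknown.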
